A study of Mus musculus with 6 samples.

Results

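The collagen genes are the 44 protein-coding genes of the deposited count table whose symbol has the form Col, a type number, the letter a and a chain number. They were taken by symbol alone out of 54532 genes, and all 44 identifiers and coordinates are those of the GENCODE M21 annotation of GRCm38, the mouse build also called mm10. The libraries came from mouse endothelial cells, which form the inner lining of vessels, cultured in a complete mouse endothelial medium and infected with lentivirus for RBPMS overexpression (RBPMS, n = 3) or with lentivirus of the empty vector (control, n = 3), and RNA was collected 72 h later. Both groups therefore carry a lentiviral vector. The labels do not give the organ or line of the cells, the share of cells infected or the species of the RBPMS sequence, nor whether replicates were separate cultures, so the spread behind each p-value is that among these libraries and may be technical. The series sets the experiment in heart failure during aging, and RBPMS binds RNA through an RRM domain and acts in splicing.

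Collagens are extracellular proteins in which chains wind into a triple helix. Fibrillar collagens form the fibrils of connective tissue, network collagens such as type IV form the sheets of basement membranes, fibril-associated collagens sit on the surface of fibrils, and transmembrane collagens stay anchored in the plasma membrane or are shed from it. Endothelial cells lay down the basement membrane on which they rest, and its main collagen is the heterotrimer of the chains encoded by Col4a1 and Col4a2. Chains are hydroxylated and folded in the endoplasmic reticulum, secreted, in many types trimmed at their ends, and cross-linked outside the cell.

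Col4a1 and Col4a2 lie head to head on chromosome 8 and are transcribed in opposite directions from a shared promoter region, so their start regions are shown together, followed by those of the 4 collagens that were lower with RBPMS in the comparison without control replicate 3 described later. The annotated loci of the pair overlap by 22 bases. Each window runs from 250 bases before to 50 bases after the annotated start, 5′ to 3′ on the gene's own strand, as given by RefSeq on GRCm38.p6. Capitals mark matches, on either strand, to CCAAT, the core of the CCAAT box, and to GGGCGG, a GC box. TATAAA, the core of the TATA box, was searched too and was in none of these 6 windows. The Col4a1 window is chr8:11312777-11313076 on the minus strand and the Col4a2 window is chr8:11312555-11312854 on the plus strand, and 78 bases, chr8:11312777-11312854, are in both.
Col4a1: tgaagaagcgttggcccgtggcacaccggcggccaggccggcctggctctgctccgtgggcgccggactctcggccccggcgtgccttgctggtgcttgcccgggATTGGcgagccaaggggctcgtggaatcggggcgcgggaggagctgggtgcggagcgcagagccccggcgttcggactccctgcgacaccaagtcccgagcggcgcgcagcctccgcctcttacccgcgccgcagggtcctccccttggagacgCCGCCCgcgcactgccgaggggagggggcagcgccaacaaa
Col4a2: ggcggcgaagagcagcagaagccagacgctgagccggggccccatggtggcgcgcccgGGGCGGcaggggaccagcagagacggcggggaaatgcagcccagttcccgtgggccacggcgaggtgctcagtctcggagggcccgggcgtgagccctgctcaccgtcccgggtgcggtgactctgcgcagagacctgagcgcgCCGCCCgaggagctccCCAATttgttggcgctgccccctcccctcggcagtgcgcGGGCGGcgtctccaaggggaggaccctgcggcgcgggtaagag
The window of Col8a1 is chr16:57754688-57754987 on the minus strand, that of Col5a1 is chr2:27886175-27886474 on the plus strand, that of Col23a1 is chr11:51289670-51289969 on the plus strand and that of Col20a1 is chr2:180986285-180986584 on the plus strand.
Col8a1: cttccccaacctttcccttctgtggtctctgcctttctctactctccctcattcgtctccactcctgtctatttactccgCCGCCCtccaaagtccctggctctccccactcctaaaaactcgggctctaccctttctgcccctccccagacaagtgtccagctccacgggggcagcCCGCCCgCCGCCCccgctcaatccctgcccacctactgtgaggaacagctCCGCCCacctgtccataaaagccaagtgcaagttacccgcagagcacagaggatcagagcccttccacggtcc
Col5a1: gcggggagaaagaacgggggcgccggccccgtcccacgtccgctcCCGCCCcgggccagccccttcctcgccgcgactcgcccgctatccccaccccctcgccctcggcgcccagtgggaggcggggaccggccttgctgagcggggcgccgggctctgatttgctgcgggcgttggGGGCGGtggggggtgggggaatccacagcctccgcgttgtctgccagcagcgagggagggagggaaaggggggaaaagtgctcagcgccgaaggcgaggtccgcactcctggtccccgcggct
Col23a1: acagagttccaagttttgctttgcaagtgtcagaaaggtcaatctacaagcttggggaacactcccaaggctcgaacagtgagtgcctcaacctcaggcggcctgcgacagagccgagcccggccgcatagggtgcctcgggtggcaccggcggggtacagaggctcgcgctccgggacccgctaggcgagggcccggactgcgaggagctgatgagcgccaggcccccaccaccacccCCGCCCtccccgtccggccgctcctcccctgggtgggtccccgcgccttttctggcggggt
Col20a1: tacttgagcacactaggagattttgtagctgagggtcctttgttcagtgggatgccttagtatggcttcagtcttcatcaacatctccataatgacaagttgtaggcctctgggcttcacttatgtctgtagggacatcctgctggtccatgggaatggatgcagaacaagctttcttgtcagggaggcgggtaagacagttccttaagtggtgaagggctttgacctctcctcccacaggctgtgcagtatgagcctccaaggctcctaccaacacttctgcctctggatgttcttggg

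The windows of Col4a1 and Col4a2 each held 1 CCAAT match, and they held 1 and 3 GGGCGG matches. The GGGCGG match of Col4a1 lies in the shared bases and is the same site as the last of the 3 in Col4a2. GGGCGG matched 4 times in the Col8a1 window, 2 times in that of Col5a1, 1 time in that of Col23a1 and at no place in that of Col20a1. Their GC content was 74.0% (Col4a1), 73.7% (Col4a2), 60.3% (Col8a1), 75.0% (Col5a1), 67.7% (Col23a1) and 50% (Col20a1, the only one of the 6 below the median), against a median of 52.7% over all 32851 windows of the RefSeq table. A window was found for 35 of the 44 collagens, 38 windows in all because some genes have several starts. GGGCGG was in 60.5% of the collagen windows and in 35.7% of all windows, CCAAT in 34.2% and 37.4%, and TATAAA in 13.2% and 13.6%. A match is a description of letters and not of a bound site.

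Total counts were 18199702 to 21492957 in the RBPMS libraries and 15779567 to 23076124 in the control libraries. Rbpms itself was at 131, 148 and 133 CPM in RBPMS replicates 1 to 3 and at 57.1, 56.8 and 55.2 CPM in control replicates 1 to 3, all RBPMS libraries above all control libraries, as the labels say. CPM are counts scaled to the library's total, here adjusted by edgeR's TMM factors. One library stood apart. The correlation of log2 CPM over genes was 0.959 to 0.965 between control replicate 3 and any other library, and 0.993 to 0.997 between any pair of those 5. Its difference from control replicates 1 and 2 moved with the annotated length of the gene, its median being 0.52 (log2) over the shortest 20% of tested genes and -0.52 over the longest 20%. Collagen genes are long, with a median annotated length of 6809 bases over the tested collagens against 3964.5 bases over all tested genes. Control replicate 3 was below the mean of the other control libraries for 15 of 17 tested collagens, or 88.2% (median log2 difference -0.41), against 50% of all tested genes. Among the longest 20% of tested genes the share was 83%, so the collagens were near other long genes in this. The same library was the lowest control library for 14 of the 17, or 82.4%, against 45% of all genes. The comparison of RBPMS with control was therefore made both with all 6 libraries and without control replicate 3.

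**Figure D1:**
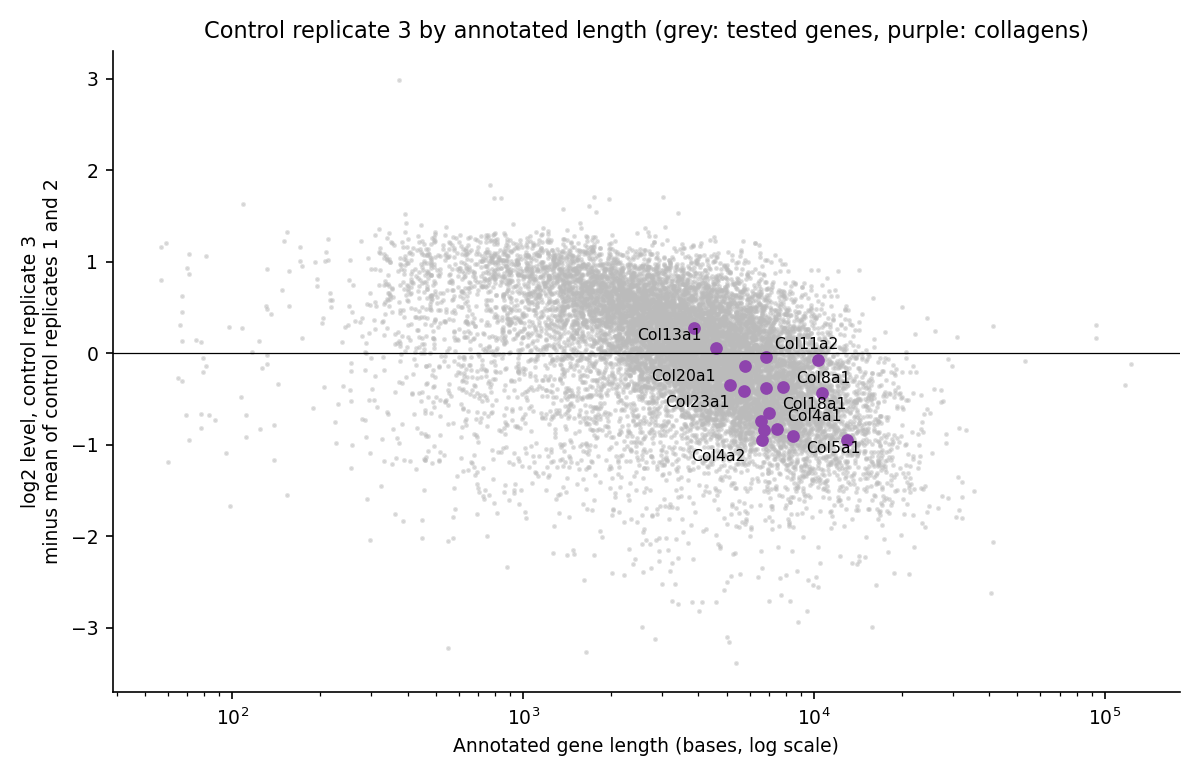
Each point is a gene, and the x axis is its annotated length in bases on a log scale. The y axis is the log2 level in control replicate 3 minus the log2 of the mean level in control replicates 1 and 2 (CPM plus 0.5). Grey points are the 13898 tested genes and purple points the 17 tested collagens, 15 of which lie below 0; names mark the 9 collagens over 10 CPM in every library.

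The cells read as endothelial. All 12 endothelial markers passed the count filter, with Cdh5, the cadherin of endothelial junctions, at 2640, 2630 and 2680 CPM in RBPMS libraries and 2390, 2450 and 1360 CPM in control libraries, and the 12 summed to 18400 to 19400 CPM (RBPMS) and 16800 to 21400 CPM (control). Of these 12, 2 were called higher and 3 lower (adjusted p under 0.05, edgeR) in the comparison without control replicate 3, in which 3.81% of all tested genes were called higher and 3.43% lower, and 0 were called with all 6 libraries. Of 10 fibroblast markers 9 stayed at or under 0.25 CPM in every library and 3 (Tcf21, Dpt and Fbln1) had no count. The list summed to 5.21 to 5.38 CPM (RBPMS) and 4.8 to 6.79 CPM (control), nearly all of it Pdgfra. All 10 mural cell markers were under 1 CPM in every library, summing to 1.37 to 2.19 CPM (RBPMS) and 1.06 to 1.95 CPM (control), with Rgs5 and Kcnj8 at 0. In bulk RNA, fewer cells of a type and less RNA per cell cannot be told apart.

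Of the 44 collagens, 17 passed the count filter in both comparisons, 12 were over 1 CPM in every library, 9 over 10 CPM and 5 over 100 CPM. The 5 were Col4a1, Col4a2, Col23a1, Col8a1 and Col18a1. By class, 5 of 11 fibrillar, 5 of 9 network, 2 of 9 fibril-associated, 3 of 4 transmembrane, 1 of 2 multiplexin, 0 of 6 beaded filament (type VI) and 1 of 3 other collagens passed. Col4a1 had the 12th highest summed count of all genes in the table and Col4a2 the 37th. Levels per kilobase of annotated length allow a rough comparison between genes. The annotated length can exceed that of the longest protein-coding transcript, as for Col8a1 (7833 against 5108 bases) and Col13a1 (4605 against 3162 bases). Close ranks, such as those of Col5a1 and Col13a1, depend on the length used. The mean over all libraries was 369 CPM per kb for Col4a1, 237.6 for Col4a2, 130.1 for Col23a1, 50.12 for Col8a1, 40.34 for Col18a1, 8.47 for Col5a1 and 7.79 for Col13a1. The other 10 tested collagens were at 3.79 CPM per kb (Col11a2) or less.

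**Figure D2:**
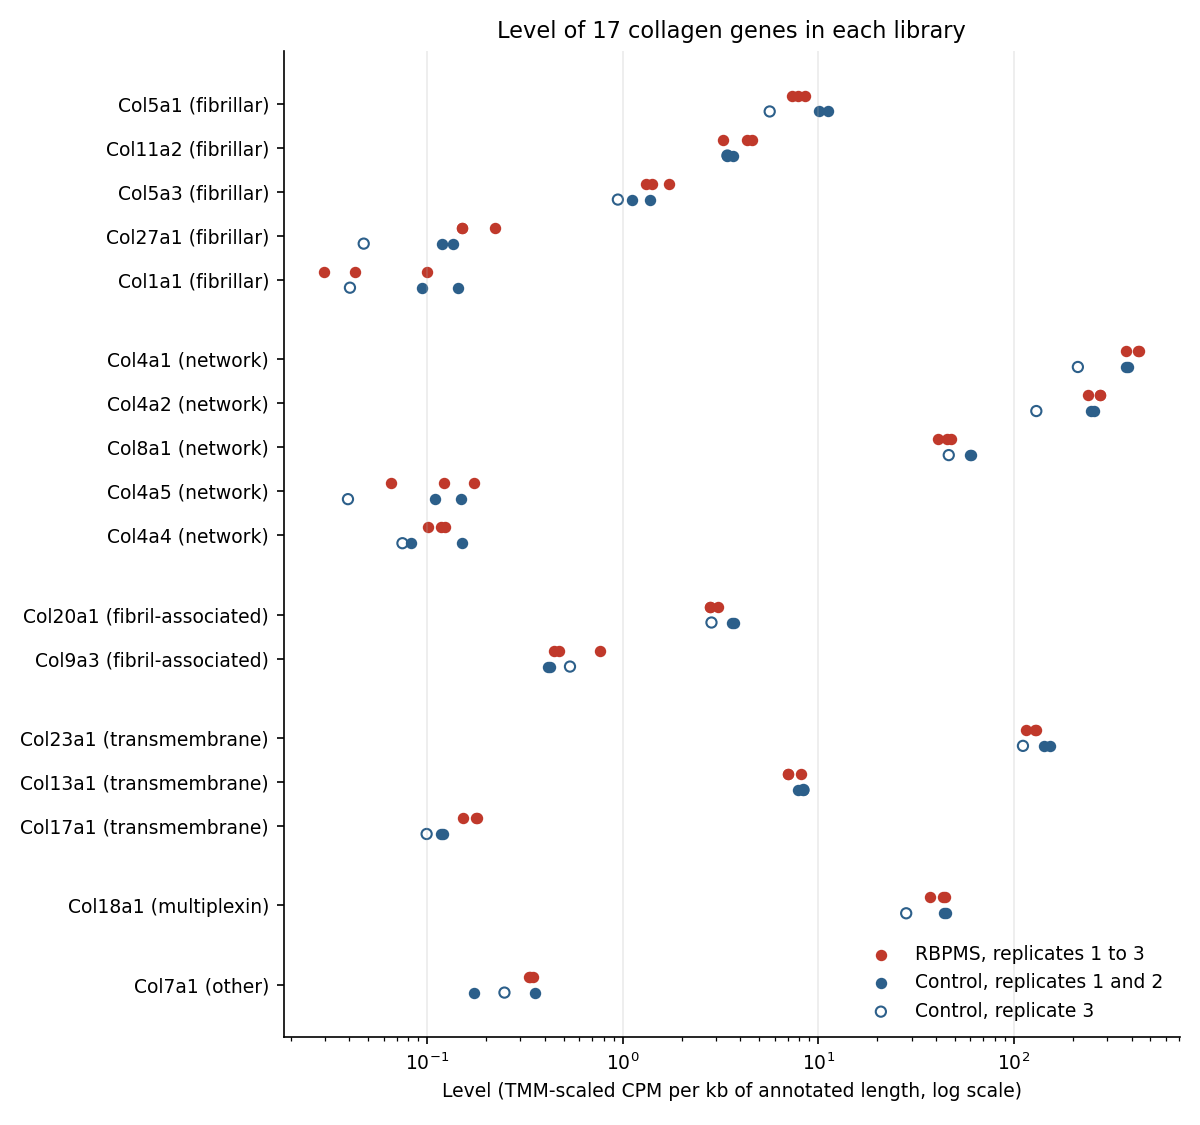
Levels of the 17 tested collagens in CPM per kilobase of annotated length (log axis), 1 point per library, RBPMS replicates above the control replicates of the same gene. Col4a1, Col4a2, Col23a1, Col8a1 and Col18a1 lie above the rest in every library, and control replicate 3, the open point, is often the lowest control point.

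The other 27 collagens stayed under the filter. Of these, 25 had 1 to 41 counts over all 6 libraries together and never exceeded 0.465 CPM, and Col11a1 and Col6a5 had 0 of 115231557 counts, which allows a level of up to 0.026 CPM (3 counts, counting error only). Of the chains of the interstitial fibrils that fibroblasts make, Col1a2 and Col3a1 had 3 counts each and Col5a2, a partner chain of Col5a1, had 17, while Col1a1, with 53 counts, was the lowest collagen to pass the filter. All 6 type VI genes, which encode the beaded filaments of connective tissue, were under the filter, led by Col6a3 with 41 counts. Col15a1, the second multiplexin, had 6 counts. No difference between groups can be read at such counts.

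All collagens together took 0.668%, 0.662% and 0.580% of the counts in RBPMS libraries, against 0.628%, 0.640% and 0.373% in control libraries. The means were 0.637% ± 0.0491 (SD, n = 3) with RBPMS and 0.547% ± 0.151 (SD, n = 3) in control, or 0.634% ± 0.00864 (SD, n = 2) without control replicate 3. The groups overlapped, with RBPMS replicate 3 below control replicates 1 and 2. The 95% Wilson intervals, which cover counting error only, were narrow, for example 0.658% to 0.665% in RBPMS replicate 2 and 0.636% to 0.644% in control replicate 2.

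With all 6 libraries, 0 of the 17 tested collagens were called at an adjusted p under 0.05 by edgeR's quasi-likelihood test. None had an unadjusted p under 0.05, and DESeq2 and limma-voom called 0 of them too. The background in this comparison was 0% of 13898 tested genes (7.56% at an unadjusted p under 0.05, and 0.403% by DESeq2). Rbpms itself, at 2.43-fold, was not called there either (adjusted p = 0.061, edgeR). It was called without control replicate 3 (2.41-fold, adjusted p = 3.6e-11). A count of 0 with all 6 libraries therefore does not show that no collagen changed. The median log2 fold change with all 6 libraries was 0.22 over the collagens and -0.01 over all tested genes. Without control replicate 3, 4 of the 17 collagens fell and 0 rose: Col8a1, Col5a1, Col23a1 and Col20a1. The background was 7.24% of 14123 tested genes, 3.43% called lower and 3.81% called higher, so that 23.5% of the tested collagens were called lower against 3.43% of all genes. Among genes over 10 CPM in every library, 4 of 9 collagens fell, against 4.9% of 8676 genes, and 0 rose, against 5.27%. The median log2 fold change was -0.035 over the 17 collagens and -0.003 over all tested genes, with 8 above 0 and 9 below. The common spread between replicates, as edgeR's coefficient of variation, was 0.196 over 6 libraries and 0.0489 over 5, without control replicate 3. This spread may be technical.

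**Figure D3:**
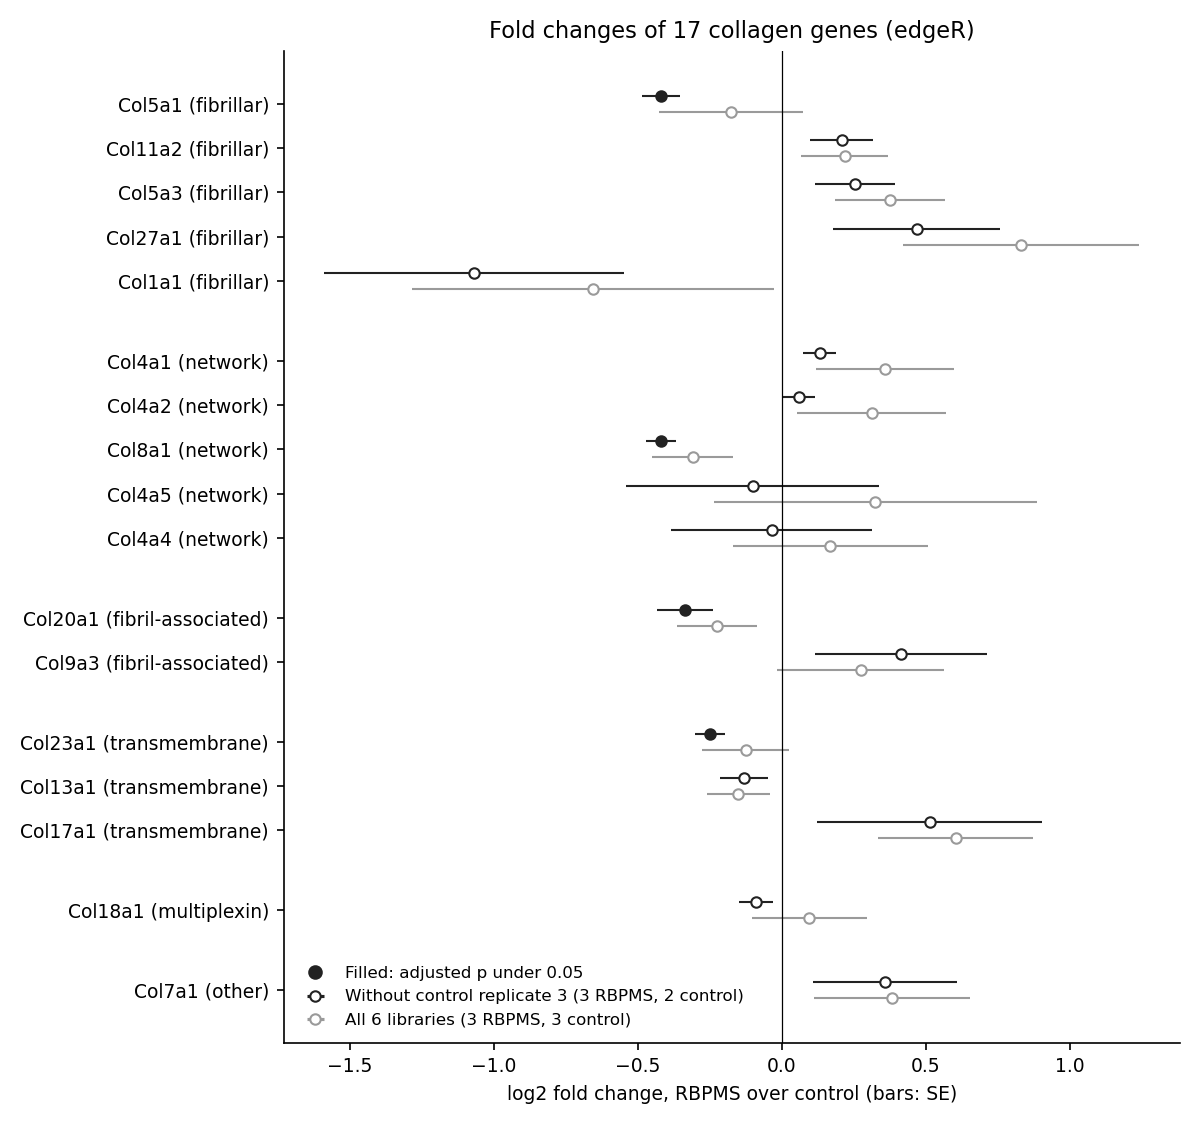
log2 fold change of RBPMS over control for the 17 tested collagens by class, with bars of 1 SE; black is the comparison without control replicate 3, grey the one with all 6 libraries, and filled points have an adjusted p under 0.05. Col5a1, Col8a1, Col20a1 and Col23a1 are the filled points, all left of 0 and all in the comparison without control replicate 3.

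Among the network collagens, the most abundant chains did not pass the test in either comparison, and the less abundant Col8a1 fell in the one without control replicate 3. Col4a1 (ENSMUSG00000031502, chr8:11198423-11312826, minus strand), a chain of the basement membrane heterotrimer, was at 3262, 3214 and 2808 CPM in RBPMS libraries and 2792, 2863 and 1588 CPM in control libraries. The groups overlapped because RBPMS replicate 3 lay between control replicates 1 and 2, and control replicate 3 was far below all others. Its log2 fold change was 0.36 ± 0.24 (SE, adjusted p = 0.59, edgeR) with all 6 libraries and 0.13 ± 0.057 (adjusted p = 0.19) without control replicate 3. The unadjusted p of the second value was 0.033, where 20.9% of all tested genes had one under 0.05. Col4a2 (ENSMUSG00000031503, chr8:11312805-11449287, plus strand), the partner chain, was at 1825, 1822 and 1580 CPM (RBPMS) and 1645, 1701 and 863.3 CPM (control), the same arrangement of libraries except that RBPMS replicate 3 was below both of control replicates 1 and 2. Its log2 fold change was 0.31 ± 0.26 (adjusted p = 0.61) with all libraries and 0.06 ± 0.057 (adjusted p = 0.61) without control replicate 3. The ratio of the pair per kilobase varied little, at 1.58, 1.56 and 1.58 in RBPMS libraries and 1.5, 1.49 and 1.63 in control libraries. All RBPMS libraries lay above control replicates 1 and 2 and below control replicate 3.

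Col8a1 (ENSMUSG00000068196, chr16:57624258-57754737, minus strand) encodes a short-chain collagen that forms lattices beneath endothelia. It was at 372.9, 356.8 and 322.2 CPM in RBPMS libraries, against 466.2, 473.4 and 364.2 CPM in control libraries. Control replicate 3 fell inside the RBPMS range, and control replicates 1 and 2 were above all RBPMS libraries. The means were 350.6 ± 25.9 CPM (SD, n = 3) with RBPMS and 434.6 ± 61.1 CPM (SD, n = 3) in control, or 469.8 ± 5.08 CPM (SD, n = 2) without control replicate 3. The log2 fold change was -0.31 ± 0.14 (unadjusted p = 0.067, adjusted p = 0.59, edgeR) with all 6 libraries and -0.42 ± 0.053 (adjusted p = 4.2e-05) without control replicate 3, a change of -25.3%. The other type IV chains were scarce. Col4a4 had log2 fold changes of 0.17 and -0.04, and Col4a5 of 0.33 and -0.10, with all 6 and without control replicate 3, at 131 and 83 counts in all. These chains are known from the kidney's filtration barrier. Their neighbours in head-to-head arrangement, Col4a3 and Col4a6, had 11 and 6 counts.

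Among the transmembrane collagens, Col23a1 (ENSMUSG00000063564, chr11:51289920-51583918, plus strand), whose ectodomain can be shed, was the third most abundant collagen per kilobase. It was at 742.2, 734.6 and 663.9 CPM in RBPMS libraries and 823.0, 873.9 and 639.1 CPM in control libraries. Control replicates 1 and 2 lay above all RBPMS libraries and control replicate 3 below them. The means were 713.6 ± 43.2 CPM (SD, n = 3) with RBPMS and 778.7 ± 124 CPM (SD, n = 3) in control, or 848.5 ± 36.0 CPM (SD, n = 2) without control replicate 3. The log2 fold change was -0.13 ± 0.15 (adjusted p = 0.69, edgeR) with all libraries and -0.25 ± 0.052 (adjusted p = 0.0046) without control replicate 3, a change of -15.8%. Leaving out control replicate 2 as well ended the call (adjusted p = 0.067). Col13a1, found at cell adhesions and at the neuromuscular junction, was at 37.50, 32.09 and 32.34 CPM (RBPMS) and 36.08, 38.38 and 38.72 CPM (control), and its groups overlapped (log2 fold change -0.15, adjusted p = 0.60, with all 6 libraries and -0.13 ± 0.083, adjusted p = 0.41, without control replicate 3). Col17a1, the collagen of hemidesmosomes, lay higher in every RBPMS library (0.88, 1.02 and 1.04 CPM) than in every control library (0.69, 0.68 and 0.57 CPM), on 94 counts in all. Its log2 fold change was 0.60 ± 0.27 (adjusted p = 0.59) with all 6 libraries and 0.51 ± 0.39 (adjusted p = 0.51) without control replicate 3, and neither passed.

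Among the fibrillar collagens, Col5a1 (ENSMUSG00000026837, chr2:27886425-28039514, plus strand), whose protein starts the assembly of fibrils, was the most abundant. It was at 67.27, 73.01 and 62.27 CPM in RBPMS libraries and 95.80, 85.16 and 47.93 CPM in control libraries. As for Col23a1, control replicates 1 and 2 were above all RBPMS libraries and control replicate 3 was below them. The means were 67.52 ± 5.37 CPM (SD, n = 3) with RBPMS and 76.3 ± 25.1 CPM (SD, n = 3) in control, or 90.48 ± 7.52 CPM (SD, n = 2) without control replicate 3. The log2 fold change was -0.18 ± 0.25 (adjusted p = 0.73, edgeR) with all libraries and -0.42 ± 0.066 (adjusted p = 0.00043) without control replicate 3, a change of -25.2%. The other fibrillar chains with more than 1 CPM did not pass. Col11a2, a cartilage chain, was at 31.49, 29.57 and 22.36 CPM (RBPMS) and 24.89, 23.45 and 23.44 CPM (control), with RBPMS replicate 3 lowest of all (log2 fold change 0.22, adjusted p = 0.59, with all 6 libraries and 0.21 ± 0.11, adjusted p = 0.29, without control replicate 3).

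Col5a3, another type V chain, was at 9.58, 11.8 and 8.93 CPM (RBPMS) and 7.61, 9.38 and 6.43 CPM (control), overlapping, with a log2 fold change of 0.38 (adjusted p = 0.59) with all 6 libraries and 0.25 ± 0.14 (adjusted p = 0.34) without control replicate 3. Per kilobase, Col5a1 stood to Col5a3 at 5.63, 4.98 and 5.59 in RBPMS libraries and at 10.1, 7.28 and 5.98 in control libraries. The ratio was lower in each RBPMS library than in any control library. Its nearest values, 5.63 and 5.98, rest on 196 and 146 counts of Col5a3, so counting error could remove the gap. How often the ratios of other gene pairs separate in this way was not computed. Col27a1, a fibrillar collagen of cartilage, was higher in every RBPMS library (1.96, 2.88 and 1.97 CPM) than in every control library (1.76, 1.54 and 0.62 CPM), on 205 counts. Its log2 fold change was 0.83 ± 0.41 (adjusted p = 0.59) with all 6 libraries and 0.47 ± 0.29 (adjusted p = 0.38) without control replicate 3. Col1a1, a chain of the main fibril of skin and bone, ranged over 0.20 to 0.66 CPM (RBPMS) and 0.26 to 0.94 CPM (control), on 53 counts, with a log2 fold change of -0.66 (adjusted p = 0.64) with all 6 libraries and -1.07 ± 0.52 (adjusted p = 0.25) without control replicate 3.

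Among the fibril-associated collagens, Col20a1 (ENSMUSG00000016356, chr2:180986535-181018363, plus strand) was at 15.79, 14.42 and 14.36 CPM in RBPMS libraries and 18.98, 18.57 and 14.63 CPM in control libraries. Control replicate 3 lay within the RBPMS range and the other control libraries above it. The log2 fold change was -0.23 ± 0.14 (adjusted p = 0.59, edgeR) with all libraries and -0.34 ± 0.097 (adjusted p = 0.038) without control replicate 3, a change of -20.8%. This value is uncertain, since 741 bases of the locus are shared with 9230112E08Rik on the same strand, a gene with 36.3% as many counts as Col20a1, between which the authors' counting could divide reads. The log2 fold change of 9230112E08Rik was -0.21 ± 0.17 (adjusted p = 0.52). The call on Col20a1 was kept in 7 of 14 other settings (adjusted p = 0.032 to 0.19). Col9a3, a chain of the type IX collagen of cartilage, was at 2.93, 1.72 and 1.81 CPM (RBPMS) and 1.63, 1.60 and 2.07 CPM (control), with a log2 fold change of 0.28 (adjusted p = 0.66) with all 6 libraries and 0.41 ± 0.30 (adjusted p = 0.49) without control replicate 3.

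Outside these classes, Col18a1 (ENSMUSG00000001435), the multiplexin of vascular basement membranes from which endostatin is released, was at 303.9, 313.2 and 260.6 CPM in RBPMS libraries and 308.4, 315.7 and 197.8 CPM in control libraries. The libraries of both groups were interleaved. Its log2 fold change was 0.10 ± 0.20 (adjusted p = 0.81) with all libraries and -0.09 ± 0.059 (adjusted p = 0.42) without control replicate 3. Its locus overlaps Slc19a1 on the other strand, which had 6.22% as many counts. Col7a1, the collagen of the anchoring fibrils of skin, was at 3.57, 3.44 and 3.40 CPM (RBPMS) and 3.65, 1.79 and 2.56 CPM (control), with a log2 fold change of 0.38 (adjusted p = 0.60) with all 6 libraries and 0.36 ± 0.25 (adjusted p = 0.47) without control replicate 3.

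**Figure D4:**
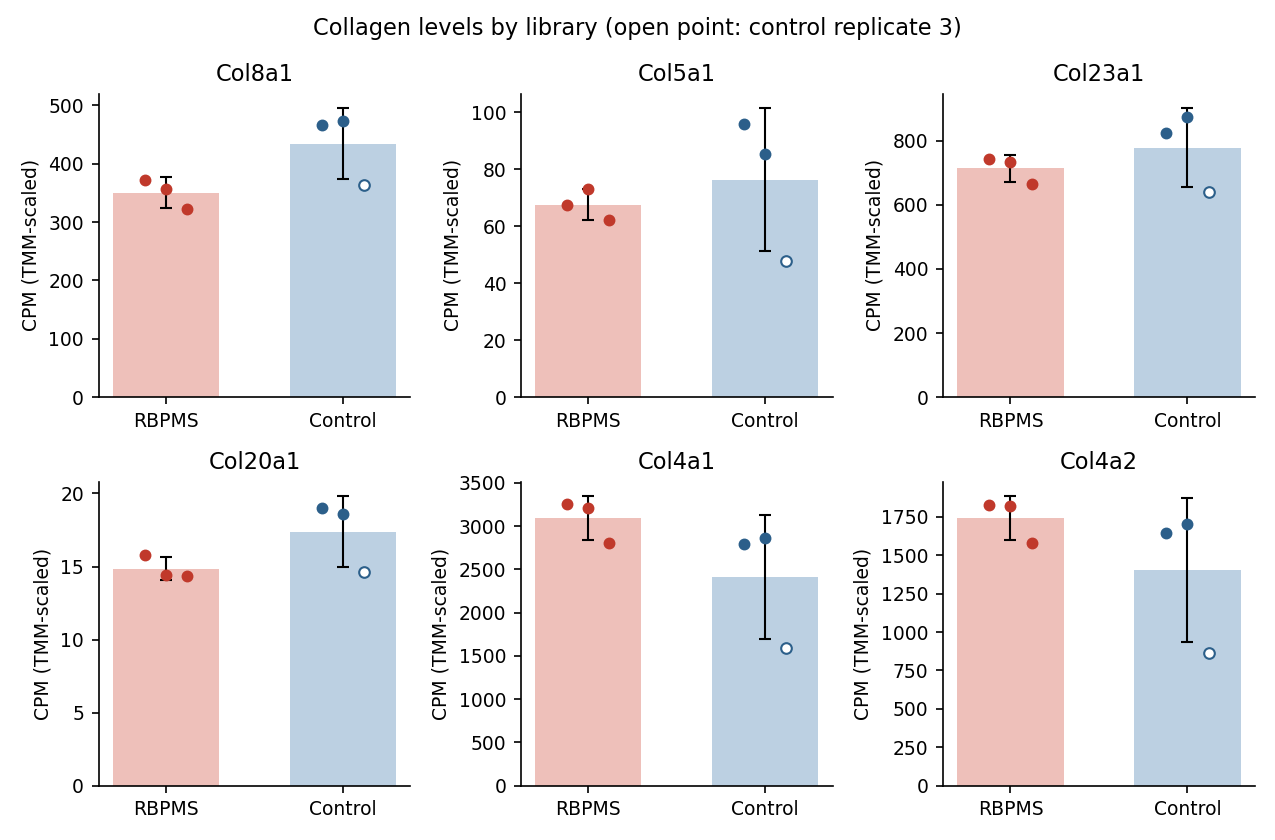
Level in CPM by library for 6 collagens, RBPMS replicates left of control replicates, with bars from 0 to the group mean and error bars of 1 SD (n = 3 each, control replicate 3 included and drawn open). Col8a1, Col23a1, Col5a1 and Col20a1 are lower in all RBPMS libraries than in control replicates 1 and 2, while Col4a1 and Col4a2 overlap.

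Whether the groups overlapped can be read without a model. With all 6 libraries, 2 tested collagens (Col17a1 and Col27a1) lay higher in every RBPMS library and 0 lower, where 12.2% and 12.5% of all tested genes did so. Without control replicate 3, 3 lay higher (those and Col9a3) and 4 lower (the called ones), or 7 of 17, against a background of 18.3% higher, 19% lower and 37.4% in either direction. That share is near the background. RBPMS replicate 3 was the lowest RBPMS library for 10 of the 17 collagens (58.8%), against 37.3% of all genes. With a trend on gene length taken out of each library, 0 collagens were called with all 6 libraries, against 0.0216% of all genes. Without control replicate 3, Col8a1, Col5a1, Col23a1 and Col20a1 were called lower with that trend taken out. There 7.53% of all genes were called in either direction, and the share of all genes called lower was not computed.

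The share of Col4a1 and Col4a2 in the collagen counts did not overlap between the groups, here described without a test. With all 6 libraries, 24.7% of single tested genes did not overlap either, and shares within other gene families were not computed. The shares of the beaded filament class and of the class of other collagens overlapped. Those of 3 further classes did not overlap and were lower with RBPMS. The fibrillar share was 1.66% to 1.78% (RBPMS) and 1.88% to 2.11% (control). The fibril-associated share was 0.25% to 0.286% (RBPMS) and 0.321% to 0.445% (control), and the multiplexin share 4.5% to 4.74% (RBPMS) and 4.92% to 5.22% (control). Col4a1 and Col4a2 together held 76.2%, 76.1% and 75.8% of all collagen counts in RBPMS libraries, against 71.2%, 71.2% and 64.6% in control libraries. The 95% Wilson intervals ran from 75.6% to 76.4% over the RBPMS libraries and from 64.3% to 71.5% over the control libraries. They cover counting error only and not the spread between libraries. The network class held 81.8%, 81.6% and 81.4% (RBPMS) and 78.7%, 78.6% and 74.3% (control), and the transmembrane class, mostly Col23a1, 11.7%, 11.6% and 12% (RBPMS) and 13.8%, 14.2% and 17.9% (control). These shares sum to the whole, so a higher share of 1 class lowers the others. As a share of all counts, the collagens other than Col4a1 and Col4a2 held 0.159%, 0.158% and 0.140% in RBPMS libraries and 0.181%, 0.185% and 0.132% in control libraries. This share was lower in every RBPMS library than in control replicates 1 and 2, and higher than in control replicate 3.

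Per kilobase, the ratio of Col4a1 to Col8a1 was 9.18, 9.45 and 9.15 in RBPMS libraries, against 6.28, 6.35 and 4.57 in control libraries. Its ratio to Col23a1 was 3.38, 3.36 and 3.25 (RBPMS) and 2.61, 2.52 and 1.91 (control), and its ratio to Col18a1 10.1, 9.65 and 10.1 (RBPMS) and 8.51, 8.53 and 7.55 (control). Control replicate 3 stood on the same side as the other control libraries in all 3 ratios. The ratio of Col4a1 to each of the 16 other tested collagens was higher in every RBPMS library for 6 (Col23a1, Col8a1, Col18a1, Col5a1, Col13a1 and Col20a1), lower for 0 and overlapping for 10. The ratio of Col4a1 to each of 13876 other genes was higher in every RBPMS library for 27.9% and lower for 1.22%, so the 37.5% among collagens is not far from that of genes at large. The choice of Col4a1 as the numerator was made after its values were seen.

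The genes that modify, secrete, trim, cross-link or bind collagen were described from 5 lists of 64 genes, of which 49 passed the filter over 6 libraries and 50 over 5. With all 6 libraries 0 were called, as for all genes. Without control replicate 3, 0 rose and 6 fell, or 12% of the 50, against 3.43% of all tested genes called lower and 3.81% called higher. The median log2 fold change was -0.056 over the 50 genes and -0.003 over all tested genes. The counts given next for each list are of genes called lower in the comparison without control replicate 3 and stand against that 3.43%. None of these calls held with all 6 libraries, where adjusted p ran from 0.59 to 0.97. Of 18 tested genes of hydroxylation and folding, 2 fell. P3h3, a prolyl 3-hydroxylase family member, was at 71.0, 70.1 and 65.4 CPM (RBPMS) and 82.3, 89.0 and 70.4 CPM (control), with a log2 fold change of -0.23 with all 6 libraries and -0.31 ± 0.058 (adjusted p = 0.0019, edgeR) without control replicate 3. The call was kept in 13 of 14 other settings and lost without control replicate 2 (adjusted p = 0.052). P3h2, a prolyl 3-hydroxylase that acts on type IV collagen, was at 75.7, 79.4 and 76.0 CPM (RBPMS) and 89.3, 91.1 and 30.0 CPM (control), with a log2 fold change of -0.23 ± 0.053 (adjusted p = 0.011) without control replicate 3. With all 6 libraries its direction was the opposite, at 0.14 ± 0.38 (adjusted p = 0.86), and the call was lost in 3 of 14 other settings, without RBPMS replicate 1, control replicate 1 or control replicate 2 (adjusted p = 0.067 to 0.089). For both genes control replicates 1 and 2 lay above all RBPMS libraries. The chaperone Serpinh1 (HSP47), which binds the folded triple helix, was at 316, 299 and 294 CPM (RBPMS) and 309, 312 and 301 CPM (control) and overlapped.

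Of 12 tested secretion genes 0 were called. The most abundant were Sar1a, a GTPase of the COPII coat (234, 228 and 237 CPM with RBPMS, 238, 246 and 292 CPM in control; log2 fold change -0.15 with all 6 libraries and -0.06 ± 0.045, adjusted p = 0.55, without control replicate 3), and Creb3l2, a transcription factor of secretory cargo genes (166, 180 and 176 CPM with RBPMS, 178, 185 and 97.3 CPM in control; 0.18 with all 6 libraries and -0.06 ± 0.049, adjusted p = 0.54, without control replicate 3). Of 4 tested genes of propeptide cleavage 2 fell. Tll1, a protease of the BMP1 family, was at 165, 147 and 163 CPM (RBPMS) and 180, 177 and 131 CPM (control), with a log2 fold change of -0.04 with all 6 libraries and -0.17 ± 0.052 (adjusted p = 0.049) without control replicate 3. This call was kept in 6 of 14 other settings. It was lost with DESeq2 size factors (adjusted p = 0.051), the DESeq2 test (0.071), limma-voom (0.056), quality weights (0.051), and without RBPMS replicate 1 or 2 or control replicate 1 or 2 (adjusted p = 0.07 to 0.24). Pcolce2, an enhancer of these proteases, was at 16.5, 21.6 and 19.2 CPM (RBPMS) and 22.7, 27.0 and 27.7 CPM (control), with a log2 fold change of -0.44 with all 6 libraries and -0.38 ± 0.11 (adjusted p = 0.035) without control replicate 3. The call was lost in 4 of 14 other settings, with DESeq2 and without RBPMS replicate 1 or 3 or control replicate 2 (adjusted p = 0.065 to 0.36). Pcolce2 was lower in every RBPMS library than in every control library, control replicate 3 included, as were 12.5% of all tested genes. Other genes of these lists were too, among them Pcolce and Sar1a. Some lay higher in every RBPMS library, among them Itgb1, as did 12.2% of all tested genes. The proteases of the amino-terminal propeptide, Adamts2, Adamts3 and Adamts14, had no count in any library.

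Of 8 tested genes of cross-linking and assembly 1 fell. It was Thbs1, a matricellular glycoprotein, at 13.9, 17.7 and 14.6 CPM (RBPMS) and 24.6, 20.2 and 11.1 CPM (control), with a log2 fold change of -0.27 with all 6 libraries and -0.54 ± 0.11 (adjusted p = 0.0045) without control replicate 3. The call was kept in 13 of 14 other settings and lost without control replicate 1 (adjusted p = 0.14). The cross-linking enzyme Lox had no count, and Sparc, a collagen-binding matrix protein, was at 2490, 2470 and 2560 CPM (RBPMS) and 2520, 2560 and 2300 CPM (control), overlapping. Of 8 tested receptor genes 1 fell. It was Itga2, a collagen-binding integrin chain, at 68.5, 63.3 and 76.2 CPM (RBPMS) and 79.6, 83.3 and 47.8 CPM (control), with a log2 fold change of -0.02 with all 6 libraries and -0.23 ± 0.067 (adjusted p = 0.038) without control replicate 3. The call was kept in 9 of 14 other settings, and lost with DESeq2 and without RBPMS replicate 1 or 2 or control replicate 1 or 2 (adjusted p = 0.063 to 0.23). Its partner Itgb1 was at 1370, 1320 and 1450 CPM (RBPMS) and 1320, 1280 and 1320 CPM (control) and did not pass (adjusted p = 0.73 with all 6 libraries and 0.31 without control replicate 3). Except for Pcolce2, each of the 6 genes had control replicate 3 inside or below the RBPMS range, as Col8a1, Col5a1, Col23a1 and Col20a1 had.

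**Figure D5:**
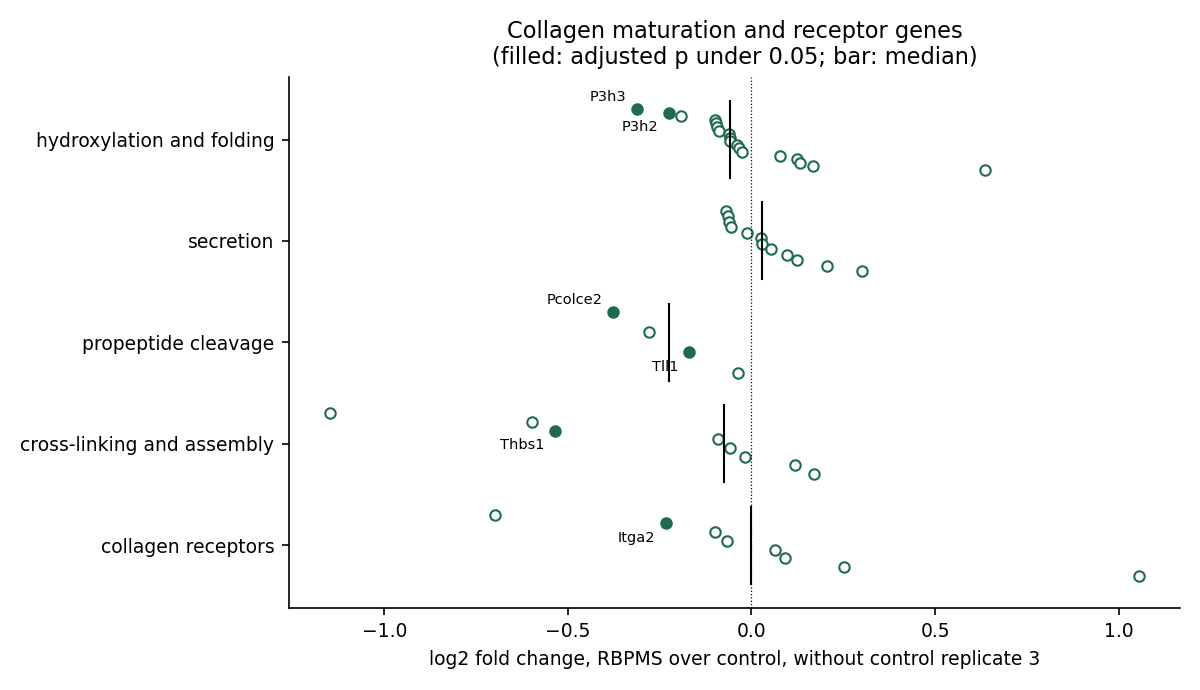
log2 fold change of RBPMS over control without control replicate 3 for the tested genes of collagen maturation and its receptors, 1 point per gene, grouped by list, with a vertical bar at each list's median. The 6 filled points, P3h3, P3h2, Tll1, Pcolce2, Thbs1 and Itga2, have an adjusted p under 0.05 and all lie below 0.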

How the data were processed

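Values are raw counts per gene as deposited by the authors, whole numbers in 1 table that also gives identifiers, coordinates and an annotated length in bases, per the file headers. FastQC, Salmon and mm10 are named in the submitters' processing notes, with no version, no counting step and no strand setting. RNA came from a Trizol extraction with ribosomal RNA depleted, per the labels' protocols. Salmon estimates need not be whole, so how the counts became whole numbers is unknown, and reads of overlapping genes may be divided wrongly.

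Counts were analysed in R 4.3.3 with edgeR 4.0.16 (filterByExpr, TMM, group as the only term, quasi-likelihood test, Benjamini-Hochberg adjustment over all tested genes), once with all 6 libraries and once without control replicate 3. Each SE is the fold change on the log2 scale over the root of its F. Levels are TMM-scaled CPM. Alternatives used DESeq2 1.42.0, limma 3.58.1, other scalings and filters, a length trend as an offset (loess span 0.3) and each library left out. No library copied another: the chi-square per degree of freedom of pairs within a group was 3.19 to 137.

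Members, lists and the comparison without control replicate 3 were chosen with earlier results of these data known. Named are collagens called in either comparison, the 12 with the highest level per kilobase, their chain partners, and up to 4 called genes of each list, or the 2 most abundant where none was called; Serpinh1, Sparc, Itgb1 and genes at 0 were named after their values were seen. Of the other marker lists, mesothelial markers summed to 19.8 to 24.3 CPM (RBPMS) and 24.6 to 29 CPM (control), cardiomyocyte markers to 1.86 to 2.51 CPM and 0.817 to 3.79 CPM, and leukocyte markers, mostly Cd68, to 54.9 to 60 CPM and 42.6 to 47.2 CPM.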

Additional observations from a re-analysis of the deposited data

How the results depend on the processing

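With all 6 libraries, 0 collagens and 0 maturation or receptor genes were called under other scalings, filters, DESeq2, limma-voom, the length offset and the replicate block. Library quality weights called 4 collagens (Col23a1, Col8a1, Col5a1 and Col20a1, all lower) and 4 maturation or receptor genes, and leaving out 1 library at a time gave 0 to 4 and 0 to 6, the upper values without control replicate 3. All genes called numbered 0, against 5 with no filter, 3 with the length offset, 56 with DESeq2 and 1087 with quality weights, and 0 to 1022 with 1 library left out. Of the log2 fold changes of the 17 tested collagens and 11 named maturation and receptor genes, those that turned sign with all 6 libraries were of genes not called there. With quality weights these were Col18a1 (-0.061), Col4a4 (-0.067), Col4a5 (-0.291), P3h2 (-0.217), Creb3l2 (-0.071) and Sparc (-0.025). The length offset turned Col18a1 (-0.002), Col4a4 (-0.033) and Serpinh1 (0.034), and Itga2 turned with the replicate block (0.017) and limma-voom (0.021). With 1 library left out, log2 fold changes crossed 0 for Col18a1 (-0.091 to 0.211), Col4a4 (-0.035 to 0.54), Col4a5 (-0.101 to 0.747), Col9a3 (-0.012 to 0.417), Col5a1 (-0.419 to 0.021), Tll1 (-0.171 to 0.039), P3h2 (-0.226 to 0.375), Itga2 (-0.233 to 0.125), Creb3l2 (-0.061 to 0.341) and Sparc (-0.017 to 0.056). In the 5-library comparison they crossed 0 for Col7a1 (-0.069 to 0.952), Col4a4 (-0.402 to 0.462, and 0.014 with limma-voom) and Col4a5 (-0.48 to 0.204).

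The comparison without control replicate 3 called 4 collagens, 5 with no filter or with quality weights (Col4a1 higher, adjusted p = 0.011 and 0.027), 3 with DESeq2, and 2 to 5 with 1 more library left out: only Col8a1 and Col5a1 without control replicate 2, and also Col4a1 and Col11a2, higher, without RBPMS replicate 3. Of maturation and receptor genes 6 were called, 3 with DESeq2 and 1 to 6 with 1 more library left out. All genes called numbered 1022, and 415 to 1017 with 1 more left out. Col8a1 (log2 fold change -0.46 to -0.36) and Col5a1 (-0.50 to -0.33) were called lower in all 14 alternatives and Col23a1 in 13. Deviations of same-numbered libraries correlated at 0.045, -0.032 and 0.005. These values show no pairing by replicate number but, with control replicate 3 standing apart, cannot exclude one. With the replicate block 4 collagens were called, Col11a2 higher (adjusted p = 0.03) and Col20a1 no longer (adjusted p = 0.083), and 8 maturation or receptor genes. The lone control left when 1 more control is dropped is assumed to vary like the RBPMS libraries. Causes were not tested, and counts under about 50 in all set no direction.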

Other observations

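RBPMS proteins bind RNA at pairs of CAC, so such pairs (spacers of 1 to 12 bases) were counted after the fold changes were known. For each tested gene only the longest protein-coding GENCODE M21 transcript was used, which need not be the one these cells express. The 17 collagens had a median of 2.5 pairs per kilobase and all 11744 genes with a transcript 2.96. In 3′ untranslated regions of at least 200 bases, medians were 4.11 pairs per kilobase for 16 collagens and 2.66 for all 10524 genes. Among called collagens these regions held 3.02 (Col8a1), 4.40 (Col5a1), 3.37 (Col23a1) and 9.53 (Col20a1) pairs per kilobase, and Col4a1 and Col4a2, which were not called, held 8.71 and 8.24. Collagen transcripts also had a higher GC content (median 58.9% against 50.2%), and no link between these counts and the fold changes was tested. The leukocyte marker Cd68, a lysosomal protein also found in other cells, was at 53.3, 58.3 and 54.8 CPM in RBPMS libraries and 41.4, 46.5 and 41.7 CPM in control libraries.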
